A study of Mus musculus with 4 samples.

Results

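RAB genes encode the largest branch of the RAS-like small GTPases, and 59 of the 24411 gene symbols in the count table belonged to it. They were taken by name, as every symbol made of Rab, a number and at most a letter and a digit, so Rab1 and Rab7 stand for the genes now often written Rab1a and Rab7a. Messenger RNA was sequenced from bone marrow pro-B cells, precursors at an early step of B cell development, sorted from C57BL/6 mice by the surface proteins B220, CD43 and HSA (CD24). The 2 control mice (numbers 55 and 69) were Tnpo3+/+ mb1Cre and the 2 knockout mice (numbers 51 and 63) were Tnpo3fl/fl mb1Cre, so both genotypes carried the Cre recombinase, which is expressed from the Cd79a locus in the B lineage. Cells other than B-lineage cells therefore need not have recombined the floxed alleles. The product of Tnpo3 is transportin 3, which brings serine- and arginine-rich splicing factors into the nucleus. The labels used here state neither the age nor the sex of the mice.

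A RAB protein switches between a GTP-bound form, which sits on a membrane and binds effector proteins, and a GDP-bound form, which is extracted into the cytosol. Each RAB marks a particular compartment or vesicle, so the set of RABs in a cell maps its secretory and endocytic routes. Guanine nucleotide exchange factors switch RABs on, GTPase-activating proteins switch them off, and a prenyl lipid on cysteines at the very end of the protein holds them on the membrane. In blood cells, RABs of the late endosome and of secretory granules serve antigen handling, granule release and cytokine secretion.

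The cysteines of the prenylation site are a feature that the members share, though their number and spacing vary. The site is shown here for the 11 RABs called different between genotypes and for 3 paralogs to which they are compared, Rab6a, Rab7 and Rab22a. Each line is the end of the coding sequence, the last 10 codons before the stop codon, from 5′ to 3′ in the GENCODE M21 annotation of GRCm38, with cysteine codons in capitals.
Rab3a: caggcgccacctcatcaggatTGTgccTGC
Rab3b: ccacctctgctgcagcagaacTGCtctTGT
Rab3d: ccacccccacagccgagcagcTGCagcTGT
Rab6a: caaccagtcaatgaaggcggcTGTtccTGC
Rab6b: cccccggccagcgagggcggcTGCtccTGT
Rab22a: cagccatcggagccaaagcgaagcTGCTGC
Rab31: cagagcttgcaagccagccgtcggTGCTGC
Rab7: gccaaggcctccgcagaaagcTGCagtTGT
Rab7b: tctccaggccagccaaagagcagaTGCTGC
Rab27a: gaggagaaggagaaggggttgTGTggcTGT
Rab33b: gagaccaagcctgcggtgactTGCtggTGC
Rab36: aacaagaggccgcccggcctaggcTGCTGT
Rab43: gacattgcggagagctggggcTGTgggTGC
Rab44: caatcaaccaagagagctggcTGCTGCcac
All 57 members for which the coding end was read had a cysteine codon among the last 5 codons, and 49 of them had at least 2. Rab3a, Rab3b, Rab3d, Rab6a, Rab6b, Rab7, Rab27a, Rab33b and Rab43 carry the 2 cysteines on either side of another residue, whereas Rab7b, Rab22a, Rab31 and Rab36 carry them side by side at the very end. Rab44 differs from these by a histidine codon after its cysteine pair, and its coding sequence of 725 codons is far longer than the 220 codons of Rab3a.

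Total counts were 32697489 and 26211372 in the controls and 40647384 and 30440627 in the knockouts. Tnpo3 stood at 159 and 148 CPM (counts per library scaled to a common total after TMM) in the controls, mice 55 and 69, and at 79.7 and 68.8 CPM in the knockouts, mice 51 and 63. This was a fall by 1.05 ± 0.14 on the log2 scale (SE, n = 2 per genotype), and edgeR's quasi-likelihood adjusted p was 0.0108. Leaving out knockout 63 gave -0.94 with an adjusted p of 0.0603. Each genotype held 1 library with high Xist and 1 with high Ddx3y, a Y-linked gene, so the sexes were balanced. Over all genes 2992 of 13507 tested passed the threshold of 0.05, and without knockout 63 the number was 1277.

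Marker genes of several cell types differed between the genotypes. Of 10 B-lineage markers, 8 were lower in the knockouts, and their summed level was 7800 and 8595 CPM in the controls against 2441 and 1916 CPM in the knockouts. All 10 plasmacytoid dendritic cell markers were higher, with sums of 1419 and 685 CPM against 8328 and 11420 CPM. These 2 lists moved in opposite directions. All 8 neutrophil markers were lower (4645 and 3625 CPM against 206 and 51.2 CPM), as were 4 of 5 eosinophil, basophil and mast cell markers (263 and 129 CPM against 3.39 and 2.36 CPM, with Epx and Prss34 at 0 in 1 knockout) and 5 of the 7 tested erythroid and megakaryocyte markers (60.8 and 56.8 CPM against 2.58 and 4.85 CPM). Higher were 4 of 6 conventional dendritic cell markers (37.3 and 8.64 CPM against 344 and 331 CPM, with Batf3 at 0 in 1 control), 5 of 8 NK cell markers (30.5 and 26 CPM against 676 and 206 CPM) and 2 of 6 T cell markers (49.3 and 69.3 CPM against 188 and 128 CPM). A few genes carried these sums. In knockout 63, Klrd1 of the NK list was at 155 CPM, and Lck and Cd28 of the T cell list were at 83.7 and 34.4 CPM. Gzma of the NK list was at 231 CPM in knockout 51 and 14.7 CPM in knockout 63. Xcr1 of the conventional dendritic list did not pass (0.459 and 0.263 CPM against 0.223 and 0.664 CPM). The part of these cell types in the RAB results below was not tested.

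Of the 59 RAB genes, 52 had enough counts to test, 6 were higher in the knockouts, 5 were lower and 41 did not pass. The share called, 21.2%, was near the 22.2% of all genes, and the 6 higher and 5 lower calls stood beside a background of 11.3% called higher and 10.9% called lower. The median log2 fold change of the 52 was 0.01 against -0.02 over all genes, with 26 values above 0 and 26 below. The median size of the change, taken without its sign, was 0.34 against 0.45. A share this near the background says nothing particular about the family, and the 11 genes called are described by role. The groups by role are small, and none was tested against the share of all genes. In bulk samples, fewer cells of a type and less RNA per cell cannot be told apart. With 2 mice per genotype, the number of calls depended on the libraries. Fewer RAB genes passed when either knockout was left out, and so did fewer of all genes.

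**Figure D1:**
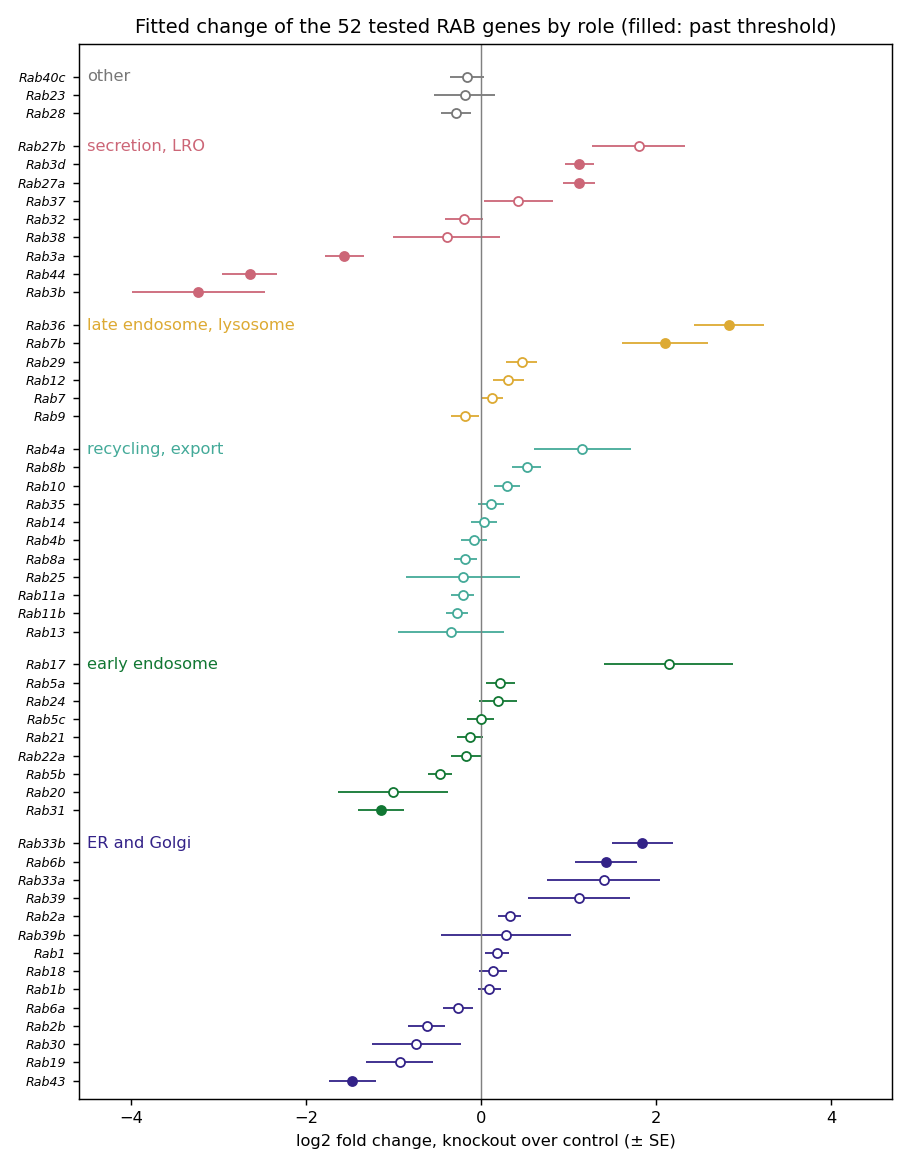
Log2 fold change in knockout over control (x axis, with SE bars) of each of the 52 tested RAB genes, grouped by role, with LRO standing for lysosome-related organelles. Filled points passed an adjusted p of 0.05. They are spread over 4 groups, lie on both sides of 0, and include none of the 11 tested recycling RABs. No group was tested against the 22.2% called over all genes.

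Among the RABs of regulated secretion and of lysosome-related organelles, 2 were higher and 3 lower of 9 tested. This was 55.6% called, against 22.2% of all genes. The 3 lower calls include Rab3b, which the filter on low counts kept through the controls alone. Rab44, a large atypical RAB implicated in granule release from mast cells (chr17:29114145-29148980, GRCm38), measured 34 and 32.4 CPM in the controls and 3.89 and 6.74 CPM in the knockouts. The log2 fold change of Rab44 was -2.65 ± 0.32 (SE, n = 2 per genotype; edgeR adjusted p = 0.00855). Rab44 was 6.26-fold lower by this fit, and it had the lowest adjusted p of the family. Rab3a, known for synaptic vesicle release, was at 24.4 and 24.3 CPM in the controls and at 7.31 and 9.13 CPM in the knockouts. This was a log2 fold change of -1.57 ± 0.22, with an edgeR adjusted p of 0.0122. Its near relative Rab3d, a RAB of secretory granules, went the other way. Rab3d was at 22.7 and 25.6 CPM in the controls and at 52.9 and 52.2 CPM in the knockouts, a log2 fold change of 1.12 ± 0.16 (edgeR adjusted p = 0.0127). Rab27a, which docks lytic granules and melanosomes at the plasma membrane, was at 37.7 and 48.5 CPM in the controls and at 99.8 and 86.8 CPM in the knockouts. The fitted change was 1.11 ± 0.18, with an edgeR adjusted p of 0.0160. The groups did not overlap for any of these genes. Over all 13507 tested genes, both knockouts were above both controls for 4452 and below them for 4667.

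Rab3b, another exocytic RAB, was close to the limit of detection, with 25 and 16 counts in the controls and 4 and 1 in the knockouts. Its log2 fold change of -3.23 ± 0.76 passed (edgeR adjusted p = 0.0364), but it no longer did when any library was left out (adjusted p 0.0952 to 0.176) or when no filter on low counts was applied (0.0560). Rab3d missed the threshold narrowly without knockout 51 (adjusted p = 0.0516) and without knockout 63 (0.0502), and Rab27a missed it without knockout 51 (0.0642), with log2 fold changes of 1.11, 1.13 and 1.01. Rab44 and Rab3a passed under every alternative. Of the other secretory RABs, Rab27b was at 0.336 and 0.263 CPM in the controls and 1.09 and 1.03 CPM in the knockouts (log2 fold change 1.80 ± 0.53, edgeR adjusted p = 0.0650). Rab37 and the melanosome RABs Rab32 and Rab38 did not pass, and Rab26 and Rab3c were not tested, with 15 and 3 counts over the 4 libraries. Rab44, Rab3a and Rab3b were lower in the same libraries as the B-lineage, neutrophil, eosinophil, basophil and mast cell, and erythroid and megakaryocyte markers. Rab27a and Rab3d were higher in the same libraries as the plasmacytoid and conventional dendritic cell, NK cell and T cell markers. With only 2 genotypes, any genes called in the same direction share their libraries in this way. A link of these RAB genes to any of these cell types was not tested.

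**Figure D2:**
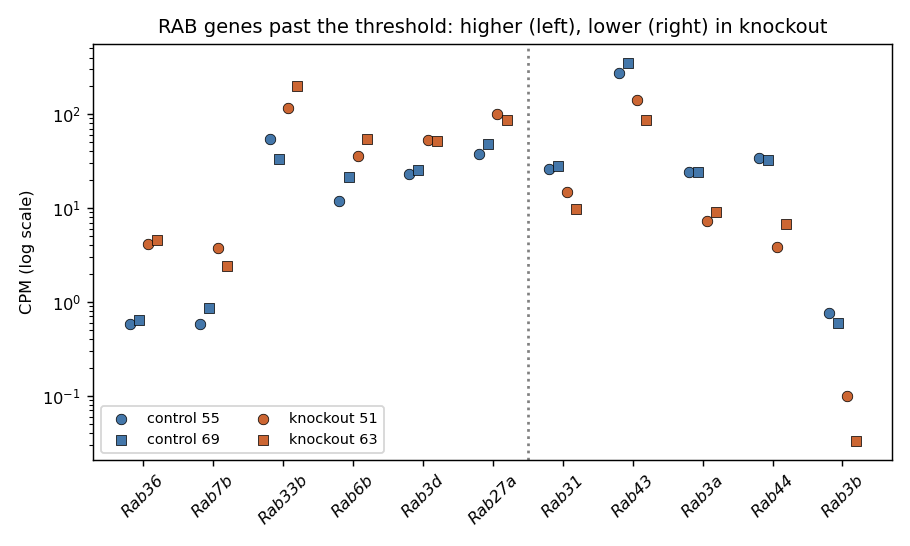
CPM (y axis, log scale) of the 11 RAB genes past the threshold in each of the 4 libraries, with controls in blue and knockouts in orange. The 6 genes to the left of the dotted line have both knockouts above both controls, and the 5 to the right have both knockouts below.

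Among the RABs of the endoplasmic reticulum and Golgi, 2 were higher and 1 was lower of 14 tested (21.4% called, against 22.2% of all genes). Rab33b, a Golgi RAB that binds the autophagy protein ATG16L1 (chr3:51483920-51496232), was at 54.4 and 33.4 CPM in the controls and at 116 and 199 CPM in the knockouts. The log2 fold change of Rab33b was 1.84 ± 0.35 (SE, n = 2 per genotype; edgeR adjusted p = 0.0221). Knockout 63 was the highest of the libraries, and without it the change was 1.40 with an adjusted p of 0.0534. Rab6b, a relative of the Golgi RAB Rab6a best known from neurons, was at 12 and 21.4 CPM in the controls and at 35.9 and 54.2 CPM in the knockouts (log2 fold change 1.43 ± 0.35, edgeR adjusted p = 0.0416). Without knockout 63 its change was 1.11 with an adjusted p of 0.146. Rab43, a RAB of transport between the endoplasmic reticulum and the Golgi (chr6:87788853-87812164), fell from 277 and 351 CPM to 140 and 86.4 CPM. For Rab43 the log2 fold change was -1.47 ± 0.27 (edgeR adjusted p = 0.0205), and without knockout 63 it was -1.17 with an adjusted p of 0.0545. Here too knockout 63 lay farthest from the controls.

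Whether counting used strand is not given in the sources used here, which bears on these genes. Of the 5526 exon bases of Rab43, 4164 are also annotated as exon of Gm45140, a protein-coding gene on the same strand, so reads of Rab43 and Gm45140 cannot be told apart there. Rab33b shares 661 exon bases with Gm38160 on the opposite strand, Rab3b shares 317 with 8030443G20Rik and Rab27a shares 149 with the pseudogene Gm27186. Rab3a shares 29 exon bases with Mpv17l2, a protein-coding gene on the opposite strand. Rab44, Rab36, Rab3d, Rab31, Rab6b and Rab7b have no exon overlap with another gene. The main RABs of transport out of the endoplasmic reticulum differed little in level, with Rab1 at 131 and 141 CPM in the controls against 146 and 162 CPM in the knockouts and Rab1b at 140 and 148 CPM against 161 and 145 CPM. Rab2a, which acts between the Golgi and the endoplasmic reticulum, was at 93.4 and 102 CPM against 117 and 127 CPM (log2 fold change 0.33 ± 0.13, edgeR adjusted p = 0.130), and Rab6a was at 105 and 80.5 CPM against 72.9 and 81.7 CPM. None of these 4 passed.

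Among the RABs of early endosomes and phagosomes, 1 of 9 tested was called (11.1%, against 22.2% of all genes), and it was lower. Rab31, which carries cargo between the trans-Golgi network and endosomes, was at 26 and 28 CPM in the controls and at 14.7 and 9.66 CPM in the knockouts. Its log2 fold change was -1.14 ± 0.27 (SE, n = 2 per genotype; edgeR adjusted p = 0.0355), and without knockout 63 it was -0.87 with an adjusted p of 0.135. Rab5c, 1 of 3 genes for the central early endosome RAB, was at 212 and 251 CPM in the controls and at 241 and 220 CPM in the knockouts, with a log2 fold change of 0.00 ± 0.15 and overlapping groups. Rab5b was at 98.0 and 103 CPM against 68.2 and 76.7 CPM and just missed the threshold (log2 fold change -0.47 ± 0.13, edgeR adjusted p = 0.0595). With the sex of the mouse as a block, an alternative added after the data were seen, Rab5b passed (adjusted p = 0.0364). The third, Rab5a, was at 64.2 and 60.8 CPM against 64.3 and 81.0 CPM. The 3 Rab5 genes thus had fitted changes of different sign, and none was called without that block. Rab21, which acts in integrin uptake, was at 141 and 121 CPM against 113 and 126 CPM.

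Among the RABs of late endosomes and lysosomes, 2 of 6 tested were called (33.3%, against 22.2% of all genes), both of them higher and both at low levels. Rab36, which shares effectors of the RILP family with Rab7 (chr10:75037058-75054748), was at 0.581 and 0.639 CPM in the controls and at 4.19 and 4.55 CPM in the knockouts, or 19 and 17 counts against 169 and 137. Its log2 fold change was 2.83 ± 0.40 (SE, n = 2 per genotype; edgeR adjusted p = 0.0120). Rab36 was 7.13-fold higher by this fit and passed under every alternative. Rab7b, which acts between late endosomes and the trans-Golgi network, was at 0.581 and 0.864 CPM in the controls and at 3.79 and 2.39 CPM in the knockouts, a log2 fold change of 2.10 ± 0.49 (edgeR adjusted p = 0.0367). Without control 55 the adjusted p was 0.0975 at a change of 1.87, without knockout 51 it was 0.150 at 1.73, and without knockout 63 it was 0.0648 at 2.39. Rab7 itself, the general RAB of the late endosome, was at 204 and 204 CPM in the controls and at 215 and 230 CPM in the knockouts (log2 fold change 0.12 ± 0.13, edgeR adjusted p = 0.535). Rab9, Rab12 and Rab29 did not pass, and Rab34 and Rab9b were not tested, with 21 and 0 counts over the 4 libraries.

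No RAB of recycling and of export to the plasma membrane was called, of 11 tested, where 22.2% of all genes were called. Rab14 was at 190 and 185 CPM in the controls and 175 and 209 CPM in the knockouts, and Rab10, which serves export of membrane proteins, was at 182 and 177 CPM against 201 and 240 CPM. Rab8a, a RAB of polarised export, was at 165 and 172 CPM against 155 and 142 CPM. Rab11b, of the recycling endosome, was at 121 and 118 CPM against 94.6 and 103 CPM, and Rab35, of fast endosomal recycling, was at 102 and 123 CPM against 127 and 116 CPM. For these abundant members the fitted changes ranged from -0.27 ± 0.13 for Rab11b to 0.30 ± 0.15 for Rab10. The nearest to the threshold was Rab8b, at 66.0 and 84.0 CPM against 114 and 101 CPM (log2 fold change 0.52 ± 0.17, edgeR adjusted p = 0.0837), which passed without control 69 (0.0285, at a change of 0.70) and with sex as a block (0.0228, at 0.53). Rab23, Rab28 and Rab40c, of the remaining group, did not pass, while Rab40b and Rab42 were not tested, with 0 and 9 counts over the 4 libraries. Rab15 was not tested either, with 7 counts. For the members with 0 counts, 3 counts correspond to 0.0743 to 0.113 CPM depending on the library, which is the level this depth could have missed.

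To compare genes with each other, CPM were divided by exon length in kilobases and each gene was expressed as a share of the summed RAB level. The summed level was 902 and 928 CPM per kb in the controls and 928 and 976 CPM per kb in the knockouts, so the family as a whole differed little between libraries. On this scale the same 2 genes led in each library. Rab5c had rank 1 with 10.7% and 12.3% of the pool in the controls and 11.8% and 10.3% in the knockouts, and Rab7 had rank 2 with 8.66% and 8.44% against 8.87% and 9.02%. These 2 ranks were the same in both genotypes, but the places after them were not. Without division by length the order differed, since Rab43, with 277 and 351 CPM, was above Rab5c and Rab7 in both controls. Rab43 had ranks 5 and 4 in the controls with 5.56% and 6.84% of the pool, and ranks 13 and 22 in the knockouts with 2.72% and 1.60%. Rab33b moved the opposite way, from ranks 19 and 25 with 1.70% and 1.02% to ranks 10 and 7 with 3.52% and 5.76%. The 8 highest genes, or 7 in knockout 63, made up 50% of the pool. Shares by role were alike, with the endoplasmic reticulum and Golgi group between 29.4% and 30.6% in all libraries and the recycling group between 25.9% and 26.3%. The early endosome group held 24.6% and 24.1% in the controls and 22.9% and 22.8% in the knockouts, and the secretory group held 4.52% and 5.01% against 5.62% and 5.05%. No test was run on these shares, and 20 of the 59 members have exon bases shared with another gene.

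**Figure D3:**
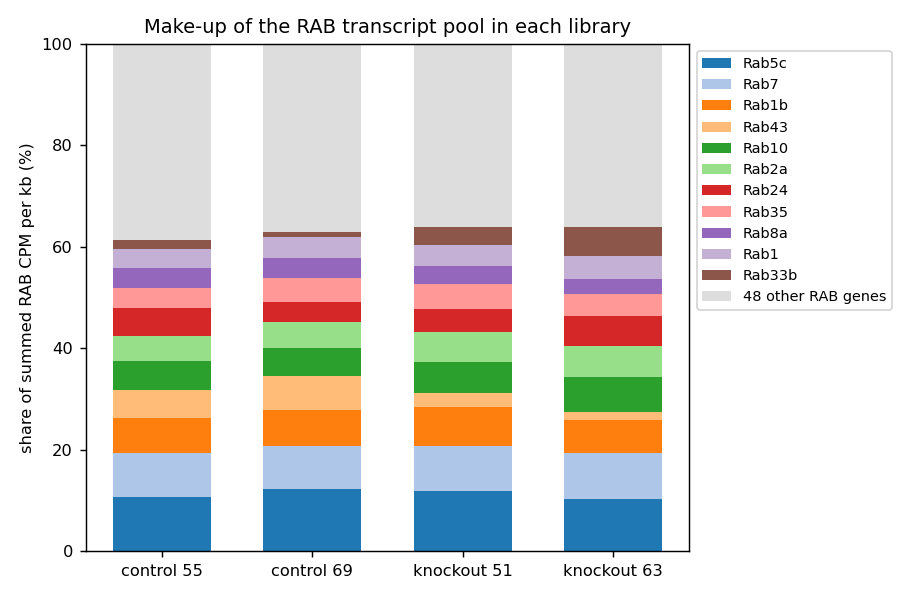
Share of summed RAB CPM per kb (y axis, percent) held by each of 11 RAB genes in the 4 libraries, as stacked bars with the other 48 genes in grey. Rab43 narrows from 5.56% and 6.84% in the controls to 2.72% and 1.60% in the knockouts, while Rab33b widens from 1.70% and 1.02% to 3.52% and 5.76%.

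Many RABs occur as close paralogs that act at the same compartment, and the balance within such pairs was compared per exon length, as a description with no test of its own. On this scale the pair Rab3a and Rab3d changed places. Rab3a made up 66.9% and 64.1% of the pair in the controls and 20.6% and 24.8% in the knockouts, a shift of the log2 ratio by -2.70. Without division by length, Rab3a was above Rab3d in control 55 (24.4 against 22.7 CPM) and below it in control 69 (24.3 against 25.6 CPM). Whether a pair changes places thus depends on the exon lengths used, which cancel out of the shift. Rab6a made up 92.2% and 83.5% of its pair with Rab6b in the controls and 73.3% and 67.0% in the knockouts, so Rab6a remained the more abundant. In the pair of Rab22a and Rab31, Rab22a went from 41.7% and 37.7% to 52.9% and 60.7% and became the larger member. Rab22a itself was at 35.2 and 31.9 CPM in the controls against 31.3 and 28.2 CPM in the knockouts (log2 fold change -0.17 ± 0.17), so the shift followed Rab31.

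Smaller shifts with no overlap between genotypes were seen for Rab8a, with 71.7% and 67.4% of its pair with Rab8b in the controls against 57.8% and 58.8%, and for Rab2a, with 88.6% and 88.4% of its pair with Rab2b against 94.1% and 93.3%. Rab5a held 34.3% and 32.1% of its pair with Rab5b in the controls and 42.9% and 45.7% in the knockouts. However, none of these 6 genes was called on its own. Rab4a held 2.91% and 2.17% of its pair with Rab4b in the controls and 8.28% and 3.48% in the knockouts. Of the 4163 exon bases of Rab2b, 2469 overlap Gm43766 on the opposite strand, and some overlap Tox4, a protein-coding gene on that strand. Of the 1970 of Rab4b, 1280 overlap Gm21983, a protein-coding gene on the same strand. Reads there may come from either gene, which limits what the balances of these pairs show. Rab5b held 19.5% and 17.6% of its pair with Rab5c in the controls and 12.9% and 15.4% in the knockouts, also with no overlap. The pairs of Rab1 with Rab1b, Rab11a with Rab11b, Rab32 with Rab38, Rab33a with Rab33b and Rab5a with Rab5c overlapped between genotypes. Rab7 made up 99% or more of its pair with Rab7b in every library, and Rab27a made up 99.6% to 99.8% of its pair with Rab27b. Rab40b was at 0 counts in all libraries, so Rab40c carried that pair. Within the pairs the coding sequences were identical at 59.7% to 78.4% of aligned positions, and the longest exact run shared was 38 bases, between Rab1 and Rab1b. For Rab3a and Rab3d the identity was 75.0% with a longest shared run of 29 bases.

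**Figure D4:**
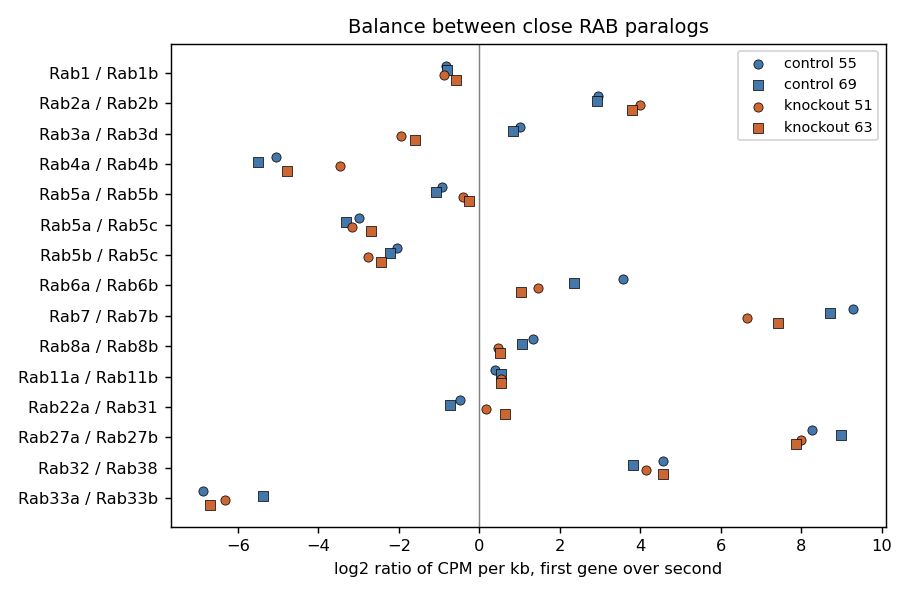
Log2 ratio of CPM per kb of the first over the second gene (x axis) for 15 paralog pairs in each library, with controls in blue and knockouts in orange. Rab3a over Rab3d crosses from above 0 in both controls to below 0 in both knockouts, and Rab22a over Rab31 crosses the other way. Where 0 falls depends on the exon lengths used. Rab11a over Rab11b lies at 0.396 and 0.546 in the controls and at 0.527 and 0.539 in the knockouts.

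Because Rab3a and Rab3d moved in opposite directions, the 250 bases before their starts are shown from the RefSeq promoter table of GRCm38.p6, with matches to GGGCGG and CCAAT on either strand in capitals. The Rab3a window, the first of 2 in the table, lies at chr8:70754453-70754702 on the plus strand and the Rab3d window at chr9:21918184-21918433 on the minus strand.
Rab3a promoter: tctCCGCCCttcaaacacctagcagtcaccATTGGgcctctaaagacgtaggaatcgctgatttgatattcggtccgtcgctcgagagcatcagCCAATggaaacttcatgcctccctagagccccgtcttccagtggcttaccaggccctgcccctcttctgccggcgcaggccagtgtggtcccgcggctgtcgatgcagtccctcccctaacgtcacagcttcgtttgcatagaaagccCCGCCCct
Rab3d promoter: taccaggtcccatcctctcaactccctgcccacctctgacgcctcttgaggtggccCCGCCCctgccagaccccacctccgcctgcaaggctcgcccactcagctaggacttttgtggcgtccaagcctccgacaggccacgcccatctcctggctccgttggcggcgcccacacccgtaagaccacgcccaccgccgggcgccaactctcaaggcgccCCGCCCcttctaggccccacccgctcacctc
The printed Rab3a window held 2 GGGCGG and 2 CCAAT matches, and the Rab3d window held 2 GGGCGG matches and 0 of CCAAT. The other Rab3a window (chr8:70754852-70755101) held neither, so the difference in CCAAT depends on the start chosen. The table held 60 promoters of 48 RAB genes, and none of the called genes Rab44, Rab36 and Rab7b. Some genes, such as Rab43, had several promoters, so the shares are of promoters and not of genes. Of the 60 promoters, 66.7% had a GGGCGG match on either strand, against 32.7% of all 32851 promoters of that length. CCAAT was matched in 40.0% of the RAB promoters and in 33.8% of all. GAGGAAGT, the letters of a PU.1 site in B cells and myeloid cells, was in 2 RAB promoters (3.33%, those of Rab2b and Rab32) against 2.44% of all. An EBF1 motif, TCCC and GGGA parted by any 2 bases, was in 0 RAB promoters against 0.779% of all, and an IRF motif, a pair of GAAA parted by any 2 bases, was in 1 (1.67%, Rab19) against 2.98%. The E-box letters CACGTG and CAGGTG were in 8.33% and 15% of RAB promoters against 6.02% and 17.2% of all, and TGACGTCA, a cyclic AMP response element, was in 3.33% against 1.55%. None of these motifs contains another. Such matches describe the letters in these windows and do not show that a factor binds there.

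Genes that load, switch and read RABs were taken as 4 lists of 126 genes in all. Of the 119 tested, 14 were higher in the knockouts and 14 were lower, a share of 23.5% against 22.2% of all genes. By list the share was 25% for prenylation and recycling, 22.2% for exchange factors, 20.6% for GTPase-activating proteins and 26.8% for effectors. Among the 8 genes for prenylation and recycling, which attach the lipid to the cysteines shown above and shuttle RABs through the cytosol, 0 were higher and 2 were lower. Rabggta, the alpha subunit of the RAB prenyltransferase, was at 36.7 and 31.0 CPM in the controls and 18.4 and 15 CPM in the knockouts (log2 fold change -1.02 ± 0.21, edgeR adjusted p = 0.0261). Both knockouts were below both controls, as they were for 4667 of the 13507 tested genes. Rabggta missed the threshold without control 55 (adjusted p = 0.0572), knockout 51 (0.0654) or knockout 63 (0.129).

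Of 36 exchange factors, 3 were higher and 5 were lower. Of the DENN domain proteins, the largest family of RAB exchange factors, Dennd5b fell from 123 and 65.9 CPM to 12.3 and 11.7 CPM (log2 fold change -2.97 ± 0.33, edgeR adjusted p = 0.00748) and Dennd6b fell from 39.1 and 33.8 CPM to 15.4 and 18 CPM (-1.13 ± 0.19). Ric1 and Rgp1 form together an exchange factor for Rab6, and they went opposite ways. Ric1 fell from 84.4 and 78.9 CPM to 49.8 and 49.2 CPM (-0.72 ± 0.13), and Rgp1 rose from 75.7 and 72.7 CPM to 126 and 145 CPM (0.87 ± 0.14). Ankrd27, an exchange factor for Rab21, rose from 51.6 and 48.5 CPM to 84.2 and 100.2 CPM (0.88 ± 0.15).

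Of 34 tested GTPase-activating proteins, 5 were higher and 2 were lower. Tbc1d8 rose from 57.0 and 17.5 CPM to 421 and 499 CPM (log2 fold change 3.62 ± 0.57, edgeR adjusted p = 0.0151), the largest change among the named regulators. Tbc1d16 rose from 3.45 and 4.62 CPM to 29.4 and 37.2 CPM (3.04 ± 0.27), and Tbc1d2b rose from 33.5 and 39.2 CPM to 101 and 90.1 CPM (1.39 ± 0.16). These proteins share the TBC domain, which speeds GTP hydrolysis by RABs. Evi5 rose from 15.8 and 8.0 CPM to 41.4 and 72.3 CPM (2.25 ± 0.43). Lower were Tbc1d10a, an activating protein for Rab27a and Rab35, from 30.6 and 33.1 CPM to 18.7 and 18.8 CPM (-0.77 ± 0.17), and Tbc1d1, from 139 and 109 CPM to 78.9 and 71.4 CPM (-0.73 ± 0.17).

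Of 41 tested effectors and other RAB-binding proteins, 6 were higher and 5 were lower. Lrrk2, a kinase that phosphorylates RABs, fell from 97.3 and 60.8 CPM to 11.8 and 10.2 CPM (log2 fold change -2.84 ± 0.28, edgeR adjusted p = 0.00647), while its relative Lrrk1 rose from 70.6 and 72.6 CPM to 141 and 130 CPM (0.92 ± 0.13). Of the proteins that act with Rab7 on late endosomes, Plekhm1 fell from 150 and 128 CPM to 59.4 and 48.5 CPM (-1.37 ± 0.17) and Fyco1, which links them to kinesin, rose from 52.8 and 49.8 CPM to 91.1 and 113 CPM (0.99 ± 0.16). The Rab5 effectors Eea1 and Rabep2 were both lower. Eea1, an endosome tether, fell from 71.5 and 64.5 CPM to 40.6 and 42.5 CPM (-0.71 ± 0.15), and Rabep2 fell from 91.5 and 83.7 CPM to 55.4 and 57.9 CPM (-0.63 ± 0.13). Unc13d, which acts with Rab27a in granule release, rose from 84.8 and 90.7 CPM to 159 and 149 CPM (0.81 ± 0.13). Rilpl1, a relative of the Rab7 effector RILP, rose from 6.60 and 3.42 CPM to 27.9 and 43.2 CPM (2.82 ± 0.41). Of the 20 regulators named, 7 passed in every fit that left out a library, namely Dennd5b, Lrrk2, Plekhm1, Rilpl1, Tbc1d16, Tbc1d2b and Tbc1d8. The other 13 missed the threshold in at least 1 such fit, with adjusted p between 0.0538 and 0.187 there, and the number called over the 4 lists was 15 without knockout 51 and 11 without knockout 63.

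**Figure D5:**
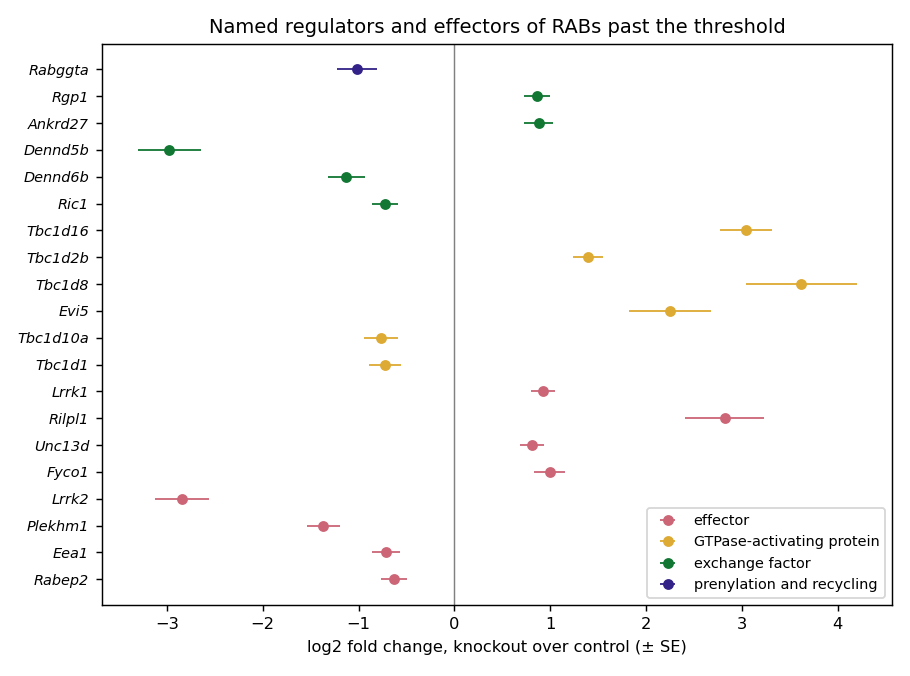
Log2 fold change in knockout over control (x axis, with SE bars) of the 20 named regulators and effectors of RABs past the threshold, coloured by list. The values run from -2.97 for Dennd5b to 3.62 for Tbc1d8, and the prenylation gene Rabggta lies below 0 at -1.02.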

How the data were processed

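RNA was sequenced from sorted pro-B cells of 4 mice, 2 per genotype, with an RNeasy Mini kit and the NEBNext Low Input RNA kit, per the labels' protocols. Alignment and counting tools in the submitters' processing notes are Subread 2.0.0 with featureCounts and STAR 2.7.4a, beside DESeq2, deepTools 3.3.2 and SAMtools 1.10, with the builds GRCm38 and mm10. The annotation and strand setting were not given in the sources used here. The authors deposited raw counts for 24411 symbols, and a second table of normalized signal equal to those counts times 1 factor per library.

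Counts were filtered with filterByExpr (minimum count 10, minimum total 15), which left 13507 genes, scaled by TMM and compared with the quasi-likelihood F test of edgeR 4.0.16 in R 4.3.3, with Benjamini-Hochberg adjustment over all genes tested and a threshold of 0.05. The filter kept a gene with counts in either genotype, so a tested gene near 0 in 1 genotype had to differ. Standard errors were the log2 fold change over the square root of F. Replicates differed by more than sampling noise (mean chi-square per gene 84.5 between controls and 61.0 between knockouts). No molecular identifiers are described, so floors cover counting error only. The biological coefficient of variation was 0.251. On simulated data for knockout against control with 13326 genes tested, the procedure called 93.8% of genes with a 4-fold change, 14.9% at 2-fold and 0% at 1.5-fold, and 7 of its 78 calls were false. The simulation gave every gene the common dispersion, so these shares do not hold gene by gene.

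Exon lengths, coordinates, coding sequences and overlaps were taken from GENCODE M21 (GRCm38), with Biopython 1.88 in Python 3.11.15 for alignment, and promoters from RefSeq (GRCm38.p6). The ends of 2 members are not reported here. The members and lists were chosen with earlier results of these data known. Named were Tnpo3, every RAB gene past the threshold or with a mean of at least 100 CPM, both members of each paralog pair, and of each regulator list up to 4 called genes per direction with the lowest adjusted p. A few genes covered by this rule are left out here. The other RAB genes are given because they are members. Alternatives were DESeq2 size factors, library totals, no filter, a stricter filter, DESeq2 1.42.0, limma-voom and limma 3.58.1 on log2 of the deposited signal plus 1, fits at a false discovery rate of 0.1, a block by sex added after the data were seen, and fits that left out a library, in which the lone library is assumed to vary like the others.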

Additional observations from a re-analysis of the deposited data

How the results depend on the processing

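No alternative turned the direction of a called RAB gene or named regulator. Rab44, Rab36 and Rab3a passed under all 12 alternatives, and the other 8 called RAB genes missed the threshold in at least 1 fit that left out a library. Leaving out 1 library in turn gave 4 to 12 RAB genes called, 2 to 8 higher and 2 to 4 lower, 11 to 31 regulators, and 1277 to 3229 of all genes, of which 747 to 1649 were higher and 530 to 1580 lower. The lowest of these values came without knockout 63, and without knockout 51 the counts were 7 RAB genes (3 higher), 15 regulators and 1616 genes (904 higher, 712 lower). Rab37 and Rab39 passed without control 69 (adjusted p = 0.0381, log2 fold change 1.08) and without control 55 (0.0408, 2.05) respectively. At a false discovery rate of 0.1, 2232 genes were lower, against 1468 at 0.05. Between DESeq2, limma-voom, the other scalings and the other filters, 10 or 11 RAB genes were called, and 2611 to 3957 of all genes. With DESeq2 the share called was 20.4% of tested RAB genes against 26.7% of all genes. Without division by exon length, the share of the RAB pool held by Rab5c was 7.31% in the controls and 7.23% in the knockouts, and that of Rab43 was 9.92% and 3.57%. No paired analysis was possible because the mouse numbers are not shared between the genotypes, so no number pairs them. A block by sex, read from Xist and Ddx3y and tried as an alternative chosen after seeing the data, left 1 residual degree of freedom among the mice. It gave 14 RAB genes called (8 higher, 6 lower), 34 regulators and 4323 of all genes. The share called was 26.9% of tested RAB genes against 32.0% of all genes. Beside the 11 called RAB genes, Rab5b, Rab8b and Rab39 passed with this block (adjusted p 0.0364, 0.0228 and 0.0457). In the simulation 14.9% of 2-fold changes were called, but it gave every gene the same dispersion. In these data some changes under 2-fold passed, such as those of Rabep2 (-0.63 ± 0.13) and Rgp1 (0.87 ± 0.14). The smallest change that could pass thus differed between genes. With 2 mice per genotype, the 41 RAB genes that did not pass are not shown to be unchanged.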

Other observations

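Some genes related to RABs do not carry the RAB symbol pattern and were looked at after the values of the family had been seen. Ift22, a RAB-like GTPase of intraflagellar transport also known as Rabl5, measured 41.2 and 38.7 CPM in the controls, mice 55 and 69, and 17.9 and 13.2 CPM in the knockouts, mice 51 and 63, a log2 fold change of -1.36 ± 0.22 (SE, n = 2 per genotype; edgeR adjusted p = 0.0152). Ift27, another RAB-like GTPase of that transport, was at 19.8 and 30.3 CPM against 21.7 and 18.2 CPM and did not pass. Cracr2a, a large GTPase of lymphocytes with EF hands as in Rab44, was at 6.76 and 5.41 CPM in the controls and at 9.86 and 11.4 CPM in the knockouts (log2 fold change 0.81 ± 0.27, edgeR adjusted p = 0.0914). Rasef, of the same domain layout, had 0 counts in all 4 libraries. Rabl2, Rabl3 and Rabl6 had log2 fold changes of 0.39, -0.13 and 0.12, and Ran, the GTPase that directs nuclear transport and hence the cargo release of transportin 3, had 0.24. None of these 4 passed.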
